A study of Mus musculus with 9 samples.

Results

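Cytosolic ribosomal protein genes were followed in mouse epiblast stem cells (EpiSCs), a pluripotent cell type like the epiblast of the implanted embryo, whose RNA was read on 9 Illumina bead arrays of 1 colour. Probes were taken by name: gene symbols of the form Rpl or Rps followed by a number (with an optional letter or paralogue suffix), plus Rplp0, Rplp1, Rplp2 and Rpsa, leaving out the Rps6 kinases and Y-named paralogues. A probe had to be detected (detection p under 0.05) on at least 3 of the 9 arrays, and the brightest passing probe by mean signal stood for its gene. Of 69 symbols in the table, 1 (Rps4y2) was left out as Y-named. RefSeq now lists it as Rps4l, a transcribed pseudogene. Of the other 68, 7 did not pass on any probe (Rpl14, Rpl17, Rpl39l, Rpl3l, Rpl6, Rps20 and Rps23), and 61 of the 13204 genes tested were members: 32 proteins of the large (60S) subunit, 26 of the small (40S) subunit and the 3 paralogues Rpl22l1, Rpl7l1 and Rps27l. Of the 61, 60 were detected on all 9 arrays, and Rpsa, the 40S protein also known as the laminin receptor, on 7. Rpl5, Rpl11 and Fau were not analysed here.

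The 3 groups held 3 biological replicates each. They were EpiSCs after 48 h in 3 µM CHIRON, EpiSCs sorted as dsRed2 positive, and EpiSCs sorted as dsRed2 negative. All cells were male, of 129 background and carried the dsRed2 reporter. The medium of all groups held bFGF (10 ng/ml) and activin A (20 ng/ml). The labels give only the name CHIRON, which is commonly used for the GSK3 inhibitor CHIR99021, an activator of Wnt/β-catenin signalling. They are silent on any sort of the treated cells, so effects of treatment and of sorting cannot be told apart, and on the promoter of the reporter. The series title concerns Wnt signalling and a subpopulation of EpiSCs that resembles the primitive streak.

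Ribosomal proteins are the protein components of the cytosolic ribosome, and each ribosome carries about one copy of most of them. Their genes are among the most actively transcribed in dividing cells, and their mRNAs begin with a run of pyrimidines, the terminal oligopyrimidine (TOP) motif, through which mTORC1 controls their translation. Levels of their mRNAs are often treated as steady, and a few of the proteins have described roles outside general translation, among them Rpl38 in the translation of Hox mRNAs in mouse embryos.

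Between 36.7% and 41.1% of the 45281 probes were detected per array, and median probe signals lay between 95.1 and 109.1. Within groups, treated replicates 1 and 2 formed the closest pair of arrays (SD of the log2 difference over all genes 0.192, against 0.293 to 0.445 for the other pairs), and treated replicate 3 was the array farthest from its group (0.434 and 0.445). Of 10 primitive streak markers, all 10 passed as higher in treated than in dsRed2 negative cells, and of 15 EpiSC markers 4 were higher and 8 lower. Pou5f1 was detected on all 9 arrays, and Oct6 (an older name of Pou3f1) and Foxd3 were the listed EpiSC markers with no passing gene of that name. Some markers of other cell types also differed between treated and dsRed2 negative cells, where 40% of all genes tested passed, 20.1% higher and 19.9% lower. Of 5 fibroblast and feeder markers tested, 2 were higher and 1, Thy1, was lower (−2.40, limma adjusted p = 6.25e-05), of 5 endoderm markers 3 were higher, and of 6 trophoblast markers 5 were higher. The summed normalized signal of the 5 fibroblast and feeder markers tested (of 11) was 1686 to 8767 in treated cells, 848 to 965 in dsRed2 positive cells and 1110 to 2095 in dsRed2 negative cells. That of 5 endoderm markers (of 11) was 3035 to 6632, 1799 to 2320 and 2488 to 3164 in the same groups, and that of 6 trophoblast markers (of 8) was 851 to 1292, 243 to 304 and 306 to 406. The high ends in treated cells were those of replicate 3. The fibroblast sums of treated replicates 1 and 2 (1686 and 1687) lay inside the range of dsRed2 negative cells, and the endoderm sums of the same arrays (3193 and 3035) lay near its top, whereas the trophoblast sums did not overlap between treated and sorted arrays. Listed fibroblast markers with no passing gene of that name were Col1a2, Col3a1, Dcn, Lum, Postn and Pdgfrb. For endoderm they were Afp, Ttr, Apoa4, Cubn, Lamb1 and Thbd, and for trophoblast Elf5 and Hand1. Markers that passed included Col1a1, with log2 signals of 7.6, 7.6 and 9.4 in treated and 4.8, 6.6 and 5.6 in dsRed2 negative cells. In the same groups Apoa1 had 7.7, 7.9 and 8.1, and 4.2, 4.2 and 4.4. Cdx2 had 7.8, 7.7 and 8.8, and 4.2, 4.7 and 4.4. Thy1 went the other way, as given above. The part of such cells in the differences below was not tested.

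The first comparison asked how the RNA of ribosomal protein genes in cells after 48 h of CHIRON differed from that in dsRed2 negative cells. On their brightest probes, most of these genes differed little. Of 61 genes, 4 passed limma's test at an adjusted p under 0.05 (6.56%), 1 higher and 3 lower in treated cells, while 40% of all genes tested passed, 20.1% higher and 19.9% lower. Rpl21 was higher, and Rps6, Rpl26 and Rpl31 were lower. Of 23 further, dimmer probes of the same genes, 11 passed, and these are given below. The median log2 difference of the 61 genes was −0.08, beside −0.007 over all genes, and the median absolute difference was 0.107, beside 0.335. The mean was lower in treated cells for 48 of the 61 (78.7%), against 50.6% of all genes.

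The errors of these genes were no wider than those of other genes. The median standard error was 0.117 for ribosomal protein genes and 0.155 for all genes. The 95% interval of the difference lay within 1.5-fold either way for 51 of the 61 (83.6%), against 37.7% of all genes, and within 2-fold for all 61, against 72.3%. Values of the 3 treated arrays lay entirely above those of the 3 dsRed2 negative arrays for 4 genes and entirely below for 13. For all genes the shares were 25.7% above and 25.6% below. At an unadjusted p under 0.05 there were 10 of the 61 ribosomal protein genes, beside 6376 of the 13204 genes tested. The count of 4 fell to 2 without any 1 of the treated replicates or without dsRed2 negative replicate 1 or 3, and was 10 (1 higher and 9 lower) with the deposited values or without background correction. Over all genes, 4273 to 5197 were called with 1 array left out, beside 5282 with all arrays. Calls over all genes with the deposited values or without background correction are not given here, so the count of 10 does not show a change particular to these genes.

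**Figure D1:**
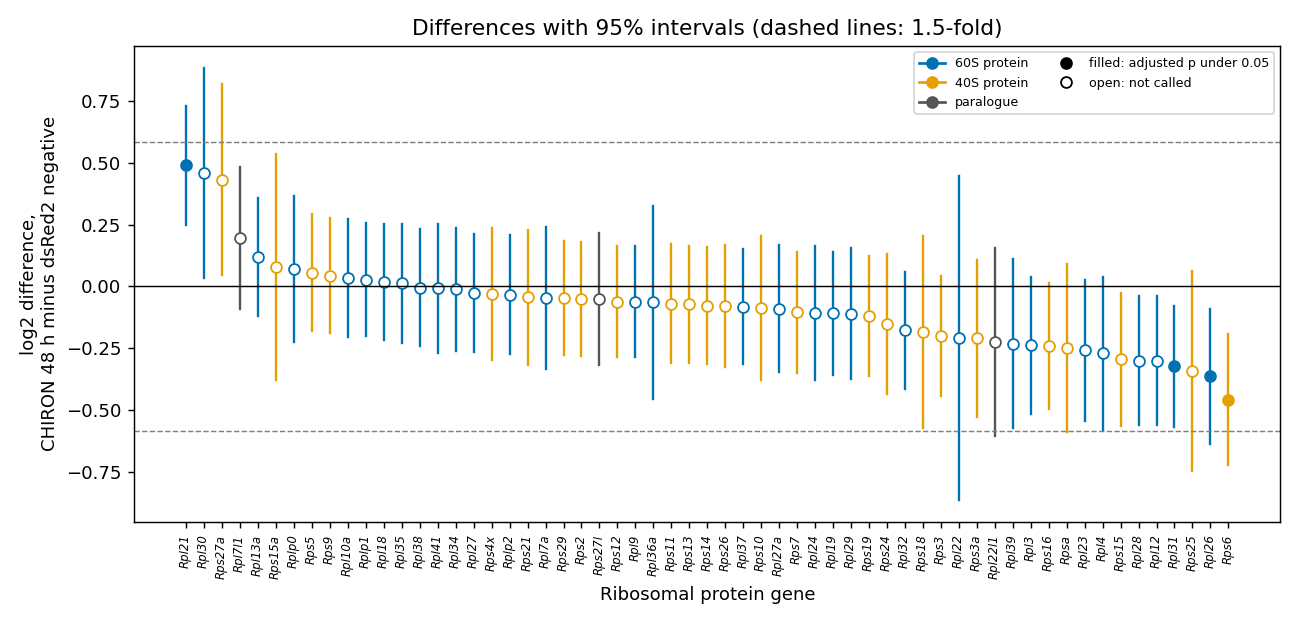
The log2 difference of 59 of the 61 ribosomal protein genes, CHIRON-treated minus dsRed2 negative cells (points), with its 95% interval from limma (bars), ordered from highest to lowest and coloured by subunit. Filled points mark the 4 genes called (Rpl21 at the left, and Rpl31, Rpl26 and Rps6 at the right), and the dashed lines mark 1.5-fold; points of both subunits are spread along the whole order.

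The subunits gave like values. Of 32 genes of the 60S subunit, 1 was called higher and 2 lower, with a median of −0.07. Of 26 genes of the 40S subunit, none was called higher and 1 lower, with a median of −0.08. The intervals lay within 1.5-fold for 84.4% of the first and 84.6% of the second. Whether the subunits differ was not tested.

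Rps6, the 40S protein that S6 kinases phosphorylate downstream of mTORC1, had the largest fall. Its log2 signals were 13.02, 13.06 and 12.89 in treated cells, 13.55, 13.24 and 13.40 in dsRed2 positive cells and 13.46, 13.40 and 13.48 in dsRed2 negative cells. All treated arrays lay below all sorted arrays. The difference from dsRed2 negative cells was −0.46 ± 0.12 (SE, n = 3 each; limma adjusted p = 0.0114). On the linear scale before normalization, its probe read 9574, 7513 and 8990 in treated cells, 11493, 10535 and 10836 in dsRed2 positive cells and 9976, 10325 and 12439 in dsRed2 negative cells. These unnormalized signals did not overlap between treated and sorted arrays either. The call held in 19 of 20 alternative settings, the exception being scaling on the array median (−0.39, adjusted p = 0.0934).

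Rpl26, a 60S protein at the ribosome's exit tunnel and a target of the ubiquitin-like modifier UFM1, had log2 signals of 12.70, 12.66 and 12.53 in treated cells. The values were 13.10, 12.82 and 12.98 in dsRed2 positive cells and 13.10, 12.87 and 12.99 in dsRed2 negative cells. Treated arrays lay below all sorted arrays, and the difference from dsRed2 negative cells was −0.36 ± 0.12 (limma adjusted p = 0.0374, and past the threshold in 11 of 21 alternatives). It was lost without any 1 of the treated replicates, with adjusted p = 0.062, 0.0744 and 0.0909 and differences of −0.40, −0.38 and −0.31 without replicates 1, 2 and 3.

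Rpl31, a 60S protein beside the same tunnel, had log2 signals of 13.27, 13.21 and 13.29 in treated cells, 13.39, 13.48 and 13.61 in dsRed2 positive cells and 13.63, 13.51 and 13.61 in dsRed2 negative cells. The treated arrays were again the lowest, with a difference from dsRed2 negative cells of −0.32 ± 0.11 (limma adjusted p = 0.0394, and past the threshold in 8 of 20 alternatives). It was lost without treated replicate 1, 2 or 3 (adjusted p = 0.0897, 0.11 and 0.0507), without dsRed2 negative replicate 1, 2 or 3 (0.102, 0.0508 and 0.0937) and without dsRed2 positive replicate 2 (0.0515). It was also lost with cyclic loess (0.0693), the 2 groups alone (0.0599), treated arrays 1 and 2 averaged (0.0953) and median scaling (0.224). The 3 passing Rpl31 probes disagreed. In a fit of all passing probes the second differed by −0.03 (adjusted p = 0.847) and the third by 0.39 (adjusted p = 0.0225). With the mean of the 3 probes the gene's difference was 0.01 (adjusted p = 0.946), so no direction for Rpl31 RNA as a whole follows from these arrays.

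Rpl21, a 60S protein, had the largest rise. Its log2 signals were 7.13, 7.25 and 7.15 in treated cells, 6.43, 6.52 and 6.48 in dsRed2 positive cells and 6.78, 6.62 and 6.66 in dsRed2 negative cells. The 3 groups did not overlap. The difference from dsRed2 negative cells was 0.49 ± 0.11 (limma adjusted p = 0.00472), and it was called in all 21 alternatives, with differences from 0.28 to 0.74. Both of its other passing probes were also higher, by 0.85 (adjusted p = 0.00188) and 0.70 (adjusted p = 0.001). All of these probes were dim: the brightest read 264, 206 and 282 in treated cells, 151, 170 and 166 in dsRed2 positive cells and 162, 173 and 187 in dsRed2 negative cells before normalization. Rpl21 RNA that these probes did not report was not measured.

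The next largest differences did not pass, apart from the alternative settings named with them. Rpl30, a 60S protein that in yeast regulates the splicing of its own transcript, had log2 signals of 10.69, 10.76 and 10.67 in treated cells, 9.82, 10.45 and 10.13 in dsRed2 positive cells and 9.86, 10.40 and 10.48 in dsRed2 negative cells. Rps27a, made as a fusion of ubiquitin with a 40S protein, had 11.78, 11.76 and 11.81 in treated cells, 11.06, 11.71 and 11.49 in dsRed2 positive cells and 11.09, 11.55 and 11.41 in dsRed2 negative cells. Treated arrays were the highest for both genes, and the sorted arrays were spread widely.

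Against dsRed2 negative cells the differences were 0.46 ± 0.19 for Rpl30 (limma adjusted p = 0.0815, 95% interval 0.03 to 0.88) and 0.43 ± 0.17 for Rps27a (limma adjusted p = 0.0726, 95% interval 0.04 to 0.82). With the replicate number as a block over the 9 arrays both passed, Rpl30 at adjusted p = 0.0375 and Rps27a at adjusted p = 0.0361, although treated and sorted arrays of the same number did not deviate together over all genes (r from −0.145 to 0.1). Rpl30 passed in that 1 of 21 alternatives and Rps27a in 4 of 21, the others being array weights (adjusted p = 0.0402), the 2 groups alone (0.0478) and leaving out dsRed2 positive replicate 1 (0.0371). Rpl28, Rpl12 and Rps15 lay between −0.29 and −0.30, with adjusted p-values of 0.0649, 0.0666 and 0.0755.

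Besides the called genes and these, the treated arrays lay entirely below the dsRed2 negative arrays for 7 further genes without a call. These included the 60S proteins Rpl4 (−0.27), Rpl3, which lies near the peptidyl transferase centre (−0.24), and Rpl32 (−0.18), and the 40S proteins Rps16 (−0.24), Rps3, which sits at the mRNA entry site (−0.20), and Rps19 (−0.12). The 4 genes above were Rpl21, Rpl30, Rps27a and Rpl13a, a 60S protein, at 0.12.

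**Figure D2:**
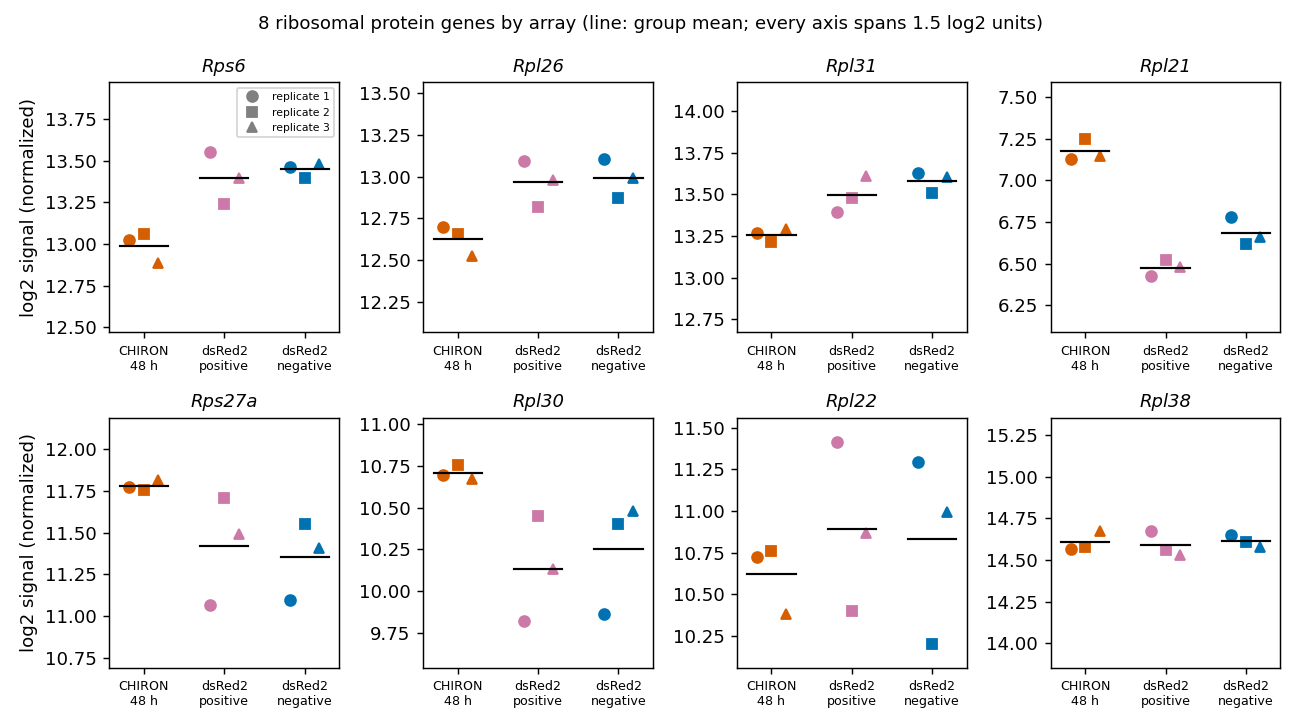
Normalized log2 signals of 8 ribosomal protein genes on each array, by group (CHIRON-treated, dsRed2 positive, dsRed2 negative), with the replicate number as marker shape and a line at each group mean; every vertical axis spans 1.5 log2 units. Treated arrays lie below all sorted arrays for Rps6, Rpl26 and Rpl31 and above them for Rpl21, Rps27a and Rpl30. In both sorts, replicate 1 is the lowest for Rps27a and Rpl30 and the highest for Rpl22.

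The promoters of the 3 genes called lower on their brightest probes are shown for the sequence features counted below across the family. Rpl38 is added, whose difference on its brightest probe was among the smallest (−0.005). The other passing Rpl38 probe was called lower (−0.485, limma adjusted p = 0.0107 in a fit of all passing probes), and the Rpl31 probes disagreed. These promoters therefore do not set changed against unchanged genes. The sequences are from RefSeq (GRCm38.p6), 80 bases before the transcription start and 20 from it, on the gene's own strand. Capitals mark the pyrimidine tract near the start and the motif CCGGAAG, which ETS factors can bind. Rps6 lies at chr4:86857348-86857447 (minus strand), Rpl26 at chr11:68901486-68901585 (plus), Rpl31 at chr1:39367771-39367870 (plus) and Rpl38 at chr11:114668500-114668599 (plus).
Rps6: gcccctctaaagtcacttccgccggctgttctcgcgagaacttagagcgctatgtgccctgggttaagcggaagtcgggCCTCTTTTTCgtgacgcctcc
Rpl26: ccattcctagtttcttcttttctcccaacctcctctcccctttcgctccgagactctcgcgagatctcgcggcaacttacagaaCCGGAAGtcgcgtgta
Rpl31: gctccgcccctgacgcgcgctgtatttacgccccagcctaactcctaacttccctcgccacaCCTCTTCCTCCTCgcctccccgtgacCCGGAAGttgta
Rpl38: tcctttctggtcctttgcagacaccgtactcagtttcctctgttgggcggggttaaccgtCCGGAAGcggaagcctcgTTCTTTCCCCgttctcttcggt

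In Rps6 and Rpl38 the tract spans the annotated start. In Rpl31 it ends before the start, and in Rpl26 the tract that was found begins at base 22 of the transcript, outside the stretch shown. Of the 61 genes, 48 had a start in the promoter table (57 starts), and Rpl21, Rpl30 and Rps27a were not among them. A run of at least 8 pyrimidines within 25 bases of the start, on the gene's strand, was present at 50.9% of these starts and at 24.1% of all 32851 starts.

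Between 250 bases before and 50 after the start, on either strand, CCGGAAG was found at 40.4% of ribosomal protein gene starts and 8.86% of all starts, and the Sp1-type motif GGGCGG at 63.2% and 35.7%. AAGATGGC, the core bound by YY1, which can overlap the end of CCGGAAG, was found at 7.02% and 2.75%, and the TATA motif TATAAA at 10.5% and 13.6%. These are matches of letters, not measured binding, and the base composition of the windows was not compared. The median difference between treated and dsRed2 negative cells was −0.09 for the 27 genes with a tract and −0.08 for the 21 without.

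The second comparison set the same treated arrays against dsRed2 positive cells. Of 61 genes, 5 passed (8.2%), 2 higher and 3 lower in treated cells, while 41% of all genes tested passed, 20.6% higher and 20.5% lower. The median difference was −0.08, beside −0.016 over all genes, and the mean was lower in treated cells for 49 of the 61, against 51.4% of all genes. The 95% interval lay within 1.5-fold for 52 genes (85.2%), against 37.4% of all genes. Treated arrays lay entirely above the dsRed2 positive arrays for 3 genes and entirely below for 19, against 26.5% and 26.7% of all genes. Because this comparison shares its treated arrays with the first, the calls are not independent of those above.

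Rpl21 differed by 0.70 ± 0.11 (limma adjusted p = 0.000554) and Rpl30 by 0.57 ± 0.19 (limma adjusted p = 0.0351). Rps6 differed by −0.41 ± 0.12 (limma adjusted p = 0.0194) and Rpl26 by −0.34 ± 0.12 (limma adjusted p = 0.0483).

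Several of these calls were close to the threshold. Rpl21 was called in all 21 alternatives and Rps6 in 16 of 20, but Rpl30 in 13 of 21 and Rpl26 in 9 of 21. The count of 5 was 1 without dsRed2 positive replicate 1, dsRed2 positive replicate 3 or treated replicate 3, and 2 without treated replicate 2. Over all genes, 4344 to 5424 were called with 1 array left out. Without dsRed2 positive replicate 1, Rpl30 differed by 0.42 (limma adjusted p = 0.135), Rps6 by −0.33 (0.0777) and Rpl26 by −0.27 (0.159).

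The third comparison asked whether cells sorted by the reporter differed. No ribosomal protein gene passed between dsRed2 positive and dsRed2 negative cells, and neither did any other gene (0%). At an unadjusted p under 0.05 there were 368 genes, of which 0 were among the 61; the lowest p of a member was 0.0793, for Rpl21. The median difference of the 61 genes was 0.00, and the 95% interval lay within 1.5-fold for 59 (96.7%), against 77.5% of all genes. The largest differences were 0.23 ± 0.18 for Rps18, a 40S protein, and −0.21 ± 0.11 for Rpl21 (limma adjusted p = 0.9998 for both). Both were read on dim probes, with mean signals of 137 and 196 before normalization. The dsRed2 positive arrays lay entirely below the dsRed2 negative arrays for 2 genes, Rpl21 and Rpl32, and entirely above for none, against 4.03% and 3.63% of all genes.

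Over all genes, sorted arrays with the same replicate number deviated together from their group means (r = 0.537, 0.584 and 0.350 for replicates 1, 2 and 3), so each pair was also compared directly. Over the 61 genes the same correlations, across genes that are not independent, were 0.684, 0.570 and 0.084, so replicate 3 was not alike for them. Of 61 genes, 4 were higher and 5 lower in dsRed2 positive cells in all 3 pairs, against 15.5% and 15% of all genes. With the replicate number as a block, no ribosomal protein gene passed either, while 3 of all genes did.

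**Figure D3:**
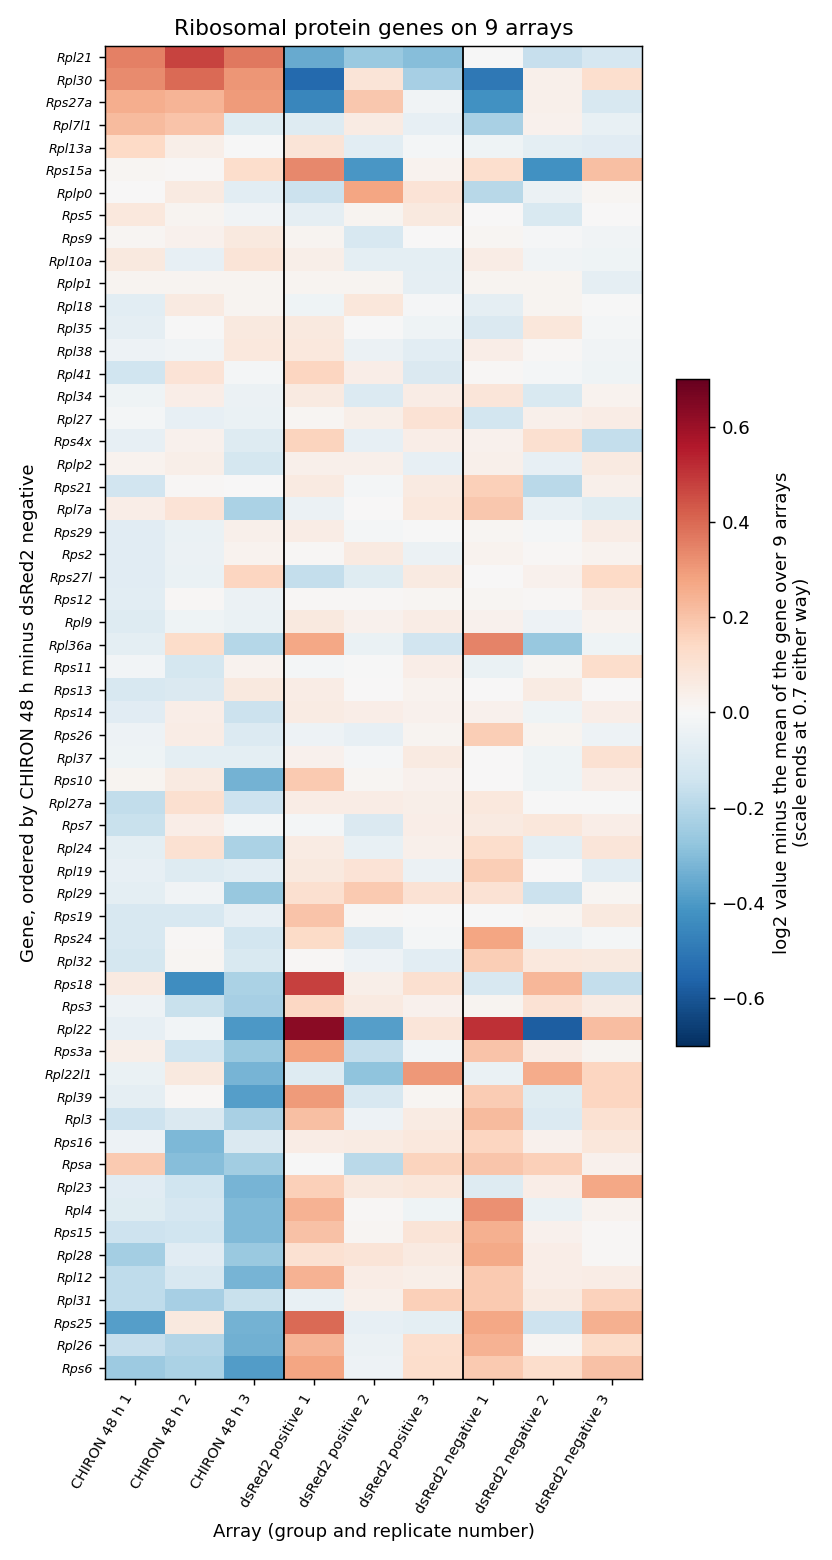
Each of the 59 rows is 1 of the 61 ribosomal protein genes and each column 1 array (CHIRON-treated, dsRed2 positive, dsRed2 negative); colour gives the log2 signal minus the gene's mean over the 9 arrays. Most rows are pale; Rpl21, Rpl30 and Rps27a at the top have their highest values on the treated arrays, Rps6, Rpl26 and Rpl31 at the bottom have their lowest there, and replicate 1 of both sorts shares its colours in many rows.

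Some genes differed more between replicate numbers than between the sorts. Rpl22, a 60S protein that in mouse represses its paralogue Rpl22l1, had the widest spread over the 9 arrays (SD 0.412). Its log2 signals were 10.72, 10.76 and 10.38 in treated cells, 11.42, 10.40 and 10.87 in dsRed2 positive cells and 11.30, 10.20 and 11.00 in dsRed2 negative cells. Replicate 1 was high and replicate 2 low in both sorts. Replicate 1 exceeded the mean of replicates 2 and 3 by 0.78 in dsRed2 positive and 0.70 in dsRed2 negative cells for Rpl22, whereas it lay below it for Rps27a (−0.54 and −0.39) and Rpl30 (−0.47 and −0.58). On treated arrays the same quantity was 0.15, −0.01 and −0.02 for Rpl22, Rps27a and Rpl30.

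On their brightest probes the 3 paralogues showed no call. Rpl22l1 had log2 signals of 5.26, 5.37 and 4.98 in treated cells, 5.21, 5.02 and 5.61 in dsRed2 positive cells and 5.26, 5.57 and 5.46 in dsRed2 negative cells, which overlap. Its probe was dim, with a mean signal of 121 before normalization. Rps27l, which is induced by p53, had 13.82, 13.86 and 14.05 in treated cells, 13.73, 13.82 and 13.96 in dsRed2 positive cells and 13.91, 13.93 and 14.04 in dsRed2 negative cells. Rpl7l1, a paralogue of Rpl7, had 10.28, 10.25 and 9.97 in treated cells, 9.96, 10.11 and 9.99 in dsRed2 positive cells and 9.83, 10.08 and 10.00 in dsRed2 negative cells. On these probes the groups of all 3 overlapped. The dimmer passing probe of Rpl7l1 was called in both comparisons with treated cells: it read 6.41, 6.03 and 6.03 in treated cells, 5.82, 5.34 and 5.21 in dsRed2 positive cells and 4.87, 5.16 and 5.23 in dsRed2 negative cells, and treated arrays lay above all sorted arrays. Of their counterparts, Rpl22 is described above, and Rpl7 and Rps27 were not analysed here.

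On their brightest probes, other members with described special roles had no call. Of the stalk proteins, which recruit elongation factors, Rplp0 and Rplp2 differed between treated and dsRed2 negative cells by 0.07 and −0.03 (95% intervals within 1.5-fold). The value of Rplp1, the third, is set by its rank, as described below. Rpl38 had 14.57, 14.58 and 14.68 in treated cells, 14.68, 14.56 and 14.53 in dsRed2 positive cells and 14.65, 14.61 and 14.58 in dsRed2 negative cells. Rps19, mutated in human Diamond-Blackfan anaemia, differed by −0.12 and Rpl23, which in human cells binds MDM2, by −0.26 (limma adjusted p = 0.139). Rpsa, near background with log2 signals of 4.59 to 5.09, differed by −0.25 (limma adjusted p = 0.225). Rack1, a 40S scaffold protein outside the naming rule, differed by −0.17, without a call.

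How far these small differences can be read depends on signal strength. Of the 61 brightest probes, 39 had a mean signal above the 99th percentile of passing probes (8441). Brightness differs between probes for reasons besides RNA level, so it ranks no gene here. It shows only where a probe lies among the passing probes, and the top of the scanner's scale is not known here. Rplp1 was the brightest of all genes tested, with unnormalized signals of 30789 to 32265 in treated cells, 32096 to 34609 in dsRed2 positive cells and 33141 to 33682 in dsRed2 negative cells. Quantile normalization gives the top probe of every array the same value, so its log2 signal of 14.995 on 7 arrays is set by its rank. Before normalization it was lower on all treated than on all dsRed2 negative arrays, and with scaling on the array median the difference was −0.15 (limma adjusted p = 0.516), so the normalized values do not show that Rplp1 was steady.

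Other bright genes also had few calls. Among 136 genes above the same limit that were not ribosomal protein genes, 11.8% were called between treated and dsRed2 negative cells, and 14% between treated and dsRed2 positive cells. Of the 39 ribosomal protein genes above the limit, 2 were called against dsRed2 negative cells (5.13%), with a median absolute difference of 0.072. Of the 22 at or below it, 2 were called (9.09%), with a median absolute difference of 0.209. Compression of bright signals was not tested.

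The dimmer probes of the same genes gave another picture. A further 23 probes passed, of 17 of the 61 genes, and were compared after the values of the brightest probes had been seen. In a fit of all 19074 passing probes, 8 of the 23 were higher and 3 lower in treated than in dsRed2 negative cells (47.8%), against 19.5% higher and 19.9% lower over all probes. Their median difference was 0.08. Against dsRed2 positive cells 9 were higher and 3 lower (52.2%), against 19.7% and 20.5% of all probes.

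For several genes the probes differed in sign. The other Rpl29 probe differed by 0.95 (adjusted p = 0.00152), beside −0.11 for the brightest, and an Rpl27a probe by 0.71 (adjusted p = 0.00182), beside −0.09. An Rpl23 probe differed by 0.37 (adjusted p = 0.0183), beside −0.26, and the other Rps19 probe by 0.51 (adjusted p = 0.0406), beside −0.12. For other genes the sign was the same and the size differed. The other Rpl7l1 probe differed by 1.07 (adjusted p = 0.000961), beside 0.20. Further probes of Rps3, Rpl28 and Rpl38 differed by −0.65, −0.49 and −0.49 (adjusted p = 0.00709, 0.0185 and 0.0107), beside −0.20, −0.30 and −0.005.

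In all, 8 of the 23 further probes had the opposite sign to the brightest probe of their gene, and Rpl31 was the 1 gene with probes called in opposite directions. Counting a gene when any passing probe was called gave 12 of 61 against dsRed2 negative cells and 13 of 61 against dsRed2 positive cells, where the same rule took 43.8% and 44.6% of all genes. Genes with several passing probes are taken more often by this rule: against dsRed2 negative cells it took 10 of the 17 members with more than 1 (58.8%), beside 59.2% of the 4129 such genes over the whole table. Which transcripts each probe reads was not tested.

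**Figure D4:**
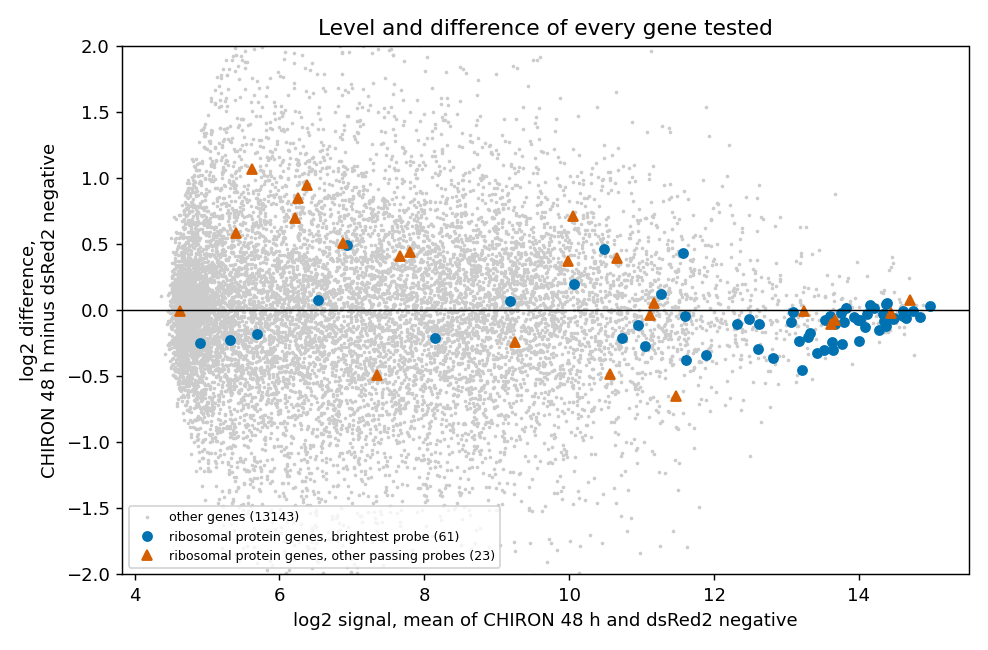
Mean log2 signal (horizontal) against the log2 difference between CHIRON-treated and dsRed2 negative cells (vertical) for 13143 other genes (grey), the brightest probe of the 61 ribosomal protein genes (blue circles) and their 23 further passing probes (orange triangles); 308 other genes lie outside the vertical range of 2 log2 units either way. The blue circles crowd near 0 at the right, where grey points also spread little, while several dimmer triangles lie above 0.3.

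Summed over the 61 genes, ribosomal protein probes took 7.86%, 9.15% and 7.35% of the background-corrected signal in treated cells, 10.1%, 9.04% and 9.15% in dsRed2 positive cells and 10.3%, 9.09% and 9.18% in dsRed2 negative cells. The means were 8.12% ± 0.93, 9.42% ± 0.57 and 9.53% ± 0.68 (SD, n = 3 each). Treated replicate 2 overlapped both sorts, so the groups were not separated on this sum. The median log2 signal of the 61 genes was 13.43, 13.44 and 13.42 on the treated arrays, 13.64, 13.56 and 13.62 on the dsRed2 positive arrays and 13.65, 13.60 and 13.63 on the dsRed2 negative arrays. By this normalized measure the treated arrays lay below all sorted arrays, as a description without a test. Before normalization the median signal was 12363, 9822 and 11877 on the treated arrays, and treated and sorted arrays overlapped. It was 12346, 13151 and 12838 on the dsRed2 positive arrays and 11721, 12079 and 13825 on the dsRed2 negative arrays. With 3 arrays a group an exact two-sided permutation test cannot go below p = 0.1, and none was run on either measure. In these bulk samples, fewer cells of a type and less RNA per cell cannot be told apart.

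Genes that make or use ribosomes were given by lists, for CHIRON-treated against dsRed2 negative cells. Over all genes tested, 40% were called in this comparison, 20.1% higher and 19.9% lower. In ribosome assembly, 16 of 66 were higher and 4 lower (30.3%, median 0.15). Pes1, a factor of 60S maturation, differed by 1.94 ± 0.24 (limma adjusted p = 0.000165) and the helicase Ddx51 by 1.05 ± 0.12 (limma adjusted p = 9.59e-05). Nvl, a 60S assembly ATPase, differed by −0.59 ± 0.13 (limma adjusted p = 0.00523). In rRNA transcription, 4 of 12 were higher and 1 lower (41.7%), a share near that of all genes. Cd3eap, a subunit of RNA polymerase I, differed by 1.63 ± 0.23 (limma adjusted p = 0.00037) and Polr1b, its second-largest subunit, by 0.93 ± 0.25 (limma adjusted p = 0.0122). The largest fall of this list (−0.665) was that of Taf1d, with log2 signals of 9.36, 9.48 and 9.10 in treated cells. In dsRed2 negative cells Taf1d had 9.92, 10.19 and 9.83.

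Among mitochondrial ribosomal proteins, 17 of 72 were higher and 9 lower (36.1%). Mrpl20 differed by 1.33 ± 0.23 (limma adjusted p = 0.00104) and Mrpl24 by −1.51 ± 0.16 (limma adjusted p = 4.55e-05). In translation initiation, 6 of 30 were higher and 5 lower (36.7%), with the eIF4G-like factor Eif4g2 at 1.26 ± 0.14 (limma adjusted p = 8.6e-05) and the helicase Eif4a2 at −1.10 ± 0.15 (limma adjusted p = 0.00029). Both shares lay near that of all genes (40%).

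No gene of 8 in translation elongation passed, and 0 had an unadjusted p under 0.05, beside 6376 of the 13204 genes tested. The lists were not matched for signal, and bright genes had fewer calls, as given above. Eef1a1, which brings aminoacyl-tRNA to the ribosome, differed by −0.02. Of 19 other mRNAs with a TOP motif, 2 were higher and 1 lower (15.8%). The higher genes included Nap1l1, a histone chaperone (0.82 ± 0.22; limma adjusted p = 0.0138), and the lower was the initiation factor Eif4b (−0.69 ± 0.19; limma adjusted p = 0.0154). The snoRNA host genes had 1 higher and 1 lower of 6.

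In the list of Myc and mTORC1 growth regulators, 6 of 20 were higher and 4 lower (50%), beside 40% of all genes. Mycl, a Myc family transcription factor, differed by 1.55 ± 0.18 (limma adjusted p = 8.84e-05), the mTOR inhibitor Deptor by −1.73 ± 0.20 (limma adjusted p = 9.12e-05), and Mtor itself by −0.87 ± 0.14 (limma adjusted p = 0.000636). Of 12 nucleolar stress and p53 target genes, 1 was higher and 4 lower (41.7%), a share near that of all genes (40%). Ccng1 differed by −1.49 ± 0.13 and the apoptosis gene Bbc3 by −1.52 ± 0.15 (limma adjusted p = 1.3e-05 and 2.99e-05). Cdkn1a went the other way, with the largest rise of this list (1.034). Its log2 signals were 11.27, 11.30 and 12.28 in treated cells and 10.40, 10.68 and 10.66 in dsRed2 negative cells. Differences between lists were not tested.

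**Figure D5:**
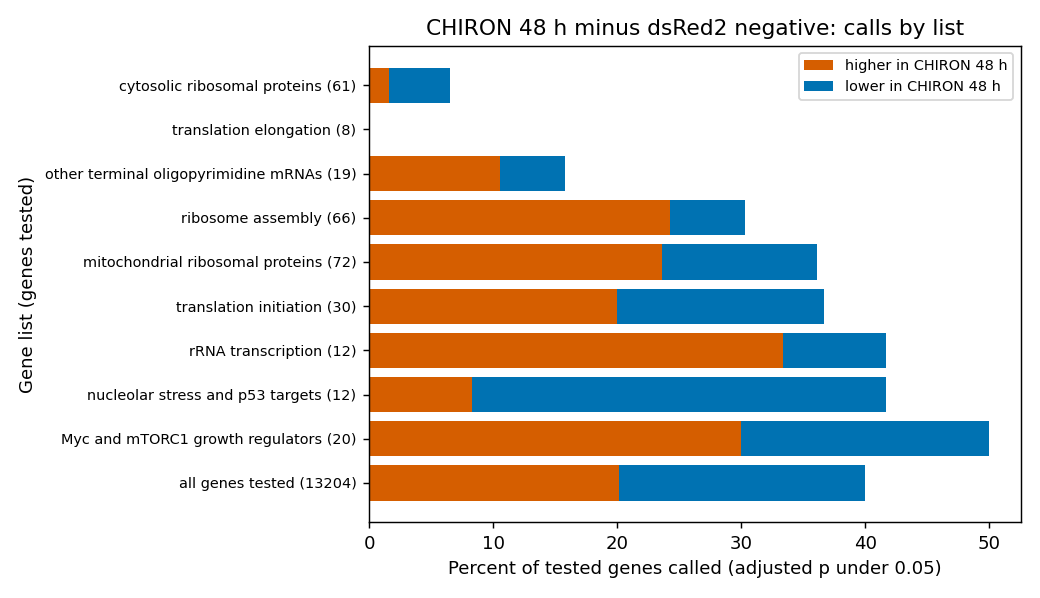
Percent of tested genes called at an adjusted p under 0.05 between CHIRON-treated and dsRed2 negative cells, for each list (number tested in brackets), split into higher (orange) and lower (blue) in treated cells. Cytosolic ribosomal protein genes reach 6.56% and translation elongation 0%, while all genes tested reach 40%. The lists are not matched for signal, and 11.8% of 136 bright genes that are not ribosomal protein genes were called (not drawn).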

How the data were processed

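Expression was measured on 9 single-colour Illumina arrays. Per the file headers, the deposited intensity of a probe is its mean bead signal, linear and without normalization, and the deposited detection p-value stands beside it. A second deposited table holds log2 values that the authors had normalized; the submitters' processing notes name lumi, without version or method, and the table serves as an alternative here. Background was removed from the signals of 45281 probes by normexp, from the detection p-values (offset 16), then brought to common quantiles and to log2, using neqc of limma 3.58.1 under R 4.3.3. The filter kept 19074 probes detected (p under 0.05) on at least 3 arrays, and 1 probe per gene, that of highest mean signal, gave 13204 genes. Symbols of the file were updated from a RefSeq table where possible (5710 of 30869 were updated and 8940 kept as given). Group means of the 9 arrays were fitted together by limma's lmFit and eBayes without covariates, and tests were two-sided, with Benjamini-Hochberg adjustment over all genes at 0.05; errors of differences are standard errors unless marked as SD. The fit was tested on simulated data. The number of arrays limits the precision.

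The ribosomal protein genes and the gene lists were chosen with earlier results of these data known. Named genes are the called ones and, where few were called, the 5 largest differences, the paralogues, stalk and other listed members, the widest and narrowest spreads, and up to 4 genes per list with the smallest p. Rpl28, Rpl12, Rps15, the genes whose arrays did not overlap, the further probes, the bright genes that are not members and the promoter features were chosen after values were seen, and 1 set of promoter settings was run. Values of some genes are not reported here, though they are counted. Replicate numbers paired the sorted arrays: deviations from the group mean correlated at r = 0.537, 0.584 and 0.350 between dsRed2 positive and dsRed2 negative arrays of the same number, but between −0.145 and 0.100 with treated arrays. Alternatives changed the background correction, normalization, filter, probe rule, array weights, groups fitted, block and replicates. Figures were drawn with matplotlib 3.10.9.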

Additional observations from a re-analysis of the deposited data

How the results depend on the processing

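Against dsRed2 negative cells, 4 ribosomal protein genes were called. The count was 10 without background correction and 10 with the deposited values (1 higher and 9 lower in each), 7 with the mean of passing probes, 6 with array weights, 2 with cyclic loess, 2 with treated arrays 1 and 2 averaged, 2 of 22 without the bright probes, and 1 with scaling on the median, where the median of all genes moved to 0.144 and calls over all genes split into 2821 higher and 1280 lower, beside 2657 and 2625. Against dsRed2 positive cells, 5 were called, with 13, 11, 11, 9, 3 and 2 in those settings up to the averaged arrays, 8 without the detection filter and 1 with median scaling. Leaving out 1 array gave 2 to 5 and 1 to 5 calls, beside 4273 to 5197 and 4344 to 5424 over all genes. Against dsRed2 positive cells the count was 3 without treated replicate 1 or dsRed2 negative replicate 1. The median difference from dsRed2 negative cells was −0.113 with median scaling, −0.11 with quantiles set on other probes, −0.109 without the bright probes and −0.107 to −0.067 with 1 array left out. From dsRed2 positive cells it was −0.143 with median scaling, where the median of all genes was 0.122, and −0.105 to −0.062 with 1 array left out. Between the sorts it was 0.038 with median scaling and −0.028 to 0.022 with 1 array left out. Rpl31 turned to 0.011 with the mean of its probes. Calls over all genes are given only where stated, and without them a count of ribosomal protein genes does not show a change particular to these genes. The cause of these changes was not tested.

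With the replicate block, 6 ribosomal protein genes were called against each sort and 0 between the sorts. Calls over all genes against each sort with this block are not given here. With the block, the deposited values and median scaling called 0 ribosomal protein genes among the 43 and 19 genes they called between the sorts. The median difference of ribosomal protein genes was 0.038 under the latter. Both of these settings were added after seeing the data.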
